A study of Mus musculus with 20 samples.

Results

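The accessible elements described here lie at the genes of the troponin complex and of the fast myosin light chains in C2C12 cells, an established mouse myoblast line that fuses into contractile myotubes. An element is a stretch of DNA in which at least 1 of 20 ATAC-seq libraries had a peak, that is, an interval where the transposase inserted sequencing adapters more often than in the surroundings. Peaks of all 20 lists that shared at least 1 bp were merged into 101352 regions, and the 88 regions within 10 kb of the GRCm38 span of Tnnt1, Tnnt2, Tnnt3, Tnni1, Tnni2, Tnni3, Tnnc1, Tnnc2, Myl1 or Mylpf were taken as the elements of these 10 genes. The distance rule takes no account of how strong or how widely called a peak was. An element counts as called in a library when that library has a peak in it, and its strength there is given as the percentile of its peak among all peaks of the same list by −log10 p (100 is the strongest).

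The cells were wild type (WT) or knockout (KO) for Setd2, the gene of the methyltransferase that places trimethylation on lysine 36 of histone H3. Libraries were labelled D0, with no medium named, or D1 and D5, when the medium was a control medium (CTL) or restricted in methionine (MR), and the series concerns differentiation. Each of the 10 groups of genotype, day and medium holds 2 libraries, replicates 1 and 2 in WT and lines 1 and 2 in KO. The labels do not say that the WT replicates came from separate cultures, and all KO groups come from the same 2 lines, so p-values measure the spread between these libraries only. A peak at an end of Setd2 was present in 10 WT and 8 KO libraries, which checks neither the edit nor the labels.

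WT lists held 20847 to 69881 peaks, and KO lists 22062 to 63530 apart from line 1 at D5, which had 644 in CTL and 1881 in MR. These last lists contained 0 and 1 of the 88 elements, so the genotype count, and each call that is lost without them, is also given without them. At D1 in CTL the lists were of like length, with 60173 and 45545 peaks in WT and 61045 and 46664 in KO. The muscle genes Des, Cdh15 and Chrna1 had peaks at most 1 kb from an end of the gene in 18 libraries and Myod1 in 17, whereas Myf5 and Pax7 had none in any. Among markers of other cell types, 3 of 3 endothelial and 3 of 3 cardiomyocyte genes had no peak in any library. In the blood, epithelial, adipocyte and neural lists the genes with peaks were Spi1 (18 libraries), Krt14 (8), Pparg (17), Sox10 (1) and Snap25 (3).

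Troponin is the calcium switch of the thin filament. Troponin C binds calcium, troponin I inhibits the actin and myosin interaction at rest, and troponin T anchors the complex to tropomyosin. Each subunit has isoforms that mark slow skeletal, fast skeletal or cardiac muscle, and the troponin I and T genes described here lie in pairs. Myl1 encodes an essential light chain and Mylpf the regulatory light chain of fast myosin, and immature muscle cells switch on several of these isoforms together when they differentiate.

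The pairs are visible in the gene map. Tnni1 (slow skeletal, chr1:135783033-135810989) and Tnnt2 (cardiac and embryonic, chr1:135836315-135852268) are 25325 bp apart, with Lad1 between them. Tnni2 and Tnnt3, both fast skeletal (chr7:142441816-142444410 and chr7:142498771-142516213), are 54360 bp apart. Tnnt1 (slow skeletal, chr7:4504569-4515975) and Tnni3 (cardiac, chr7:4518305-4522718) are 2329 bp apart. The single genes are Tnnc1 (slow skeletal and cardiac, chr14:31208312-31211729), Tnnc2 (fast, chr2:164777161-164779734), Myl1 (chr1:66924295-66947932) and Mylpf (chr7:127208848-127214288).

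The start windows of 7 genes are printed here because peaks over the first 5 starts were found in WT libraries alone, while the last pair had none in any library. The Tnnt1 window and a second window of Tnnt2 also had none and are not printed. Each covers 250 bases before to 50 after an annotated start on the gene's own strand, from RefSeq on GRCm38.p6. Capitals mark matches on either strand to the E-box CAGCTG, a core bound by MyoD family factors, to the MCAT motif CATTCC, a TEAD core, and to TATAAA. The windows are:
Tnni1 (chr1:135799171-135799470, plus strand): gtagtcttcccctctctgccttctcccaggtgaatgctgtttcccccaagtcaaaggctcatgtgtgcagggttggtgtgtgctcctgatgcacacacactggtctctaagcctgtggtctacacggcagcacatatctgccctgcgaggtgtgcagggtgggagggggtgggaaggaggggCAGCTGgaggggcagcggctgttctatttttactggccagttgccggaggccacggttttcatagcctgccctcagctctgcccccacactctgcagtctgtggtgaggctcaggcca
Tnnt2 (chr1:135836084-135836383, plus strand): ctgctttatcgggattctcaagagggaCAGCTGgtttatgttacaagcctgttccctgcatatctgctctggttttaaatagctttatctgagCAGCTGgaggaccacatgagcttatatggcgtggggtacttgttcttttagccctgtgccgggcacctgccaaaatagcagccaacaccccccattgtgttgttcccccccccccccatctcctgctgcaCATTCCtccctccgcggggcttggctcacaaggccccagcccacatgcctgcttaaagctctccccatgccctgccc
Tnnc1 (chr14:31208062-31208361, plus strand): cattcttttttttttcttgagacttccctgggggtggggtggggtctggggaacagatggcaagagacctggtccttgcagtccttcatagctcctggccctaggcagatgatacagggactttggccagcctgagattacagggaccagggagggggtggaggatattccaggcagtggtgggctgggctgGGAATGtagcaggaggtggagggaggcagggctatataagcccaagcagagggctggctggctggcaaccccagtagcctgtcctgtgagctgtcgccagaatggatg
Tnnc2 (chr2:164779685-164779984, minus strand): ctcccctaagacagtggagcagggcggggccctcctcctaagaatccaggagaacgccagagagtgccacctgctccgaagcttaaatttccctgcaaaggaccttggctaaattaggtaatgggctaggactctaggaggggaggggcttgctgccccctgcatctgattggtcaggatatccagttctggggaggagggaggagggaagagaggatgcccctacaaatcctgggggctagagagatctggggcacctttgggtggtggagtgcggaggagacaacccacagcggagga
Mylpf (chr7:127211358-127211657, plus strand): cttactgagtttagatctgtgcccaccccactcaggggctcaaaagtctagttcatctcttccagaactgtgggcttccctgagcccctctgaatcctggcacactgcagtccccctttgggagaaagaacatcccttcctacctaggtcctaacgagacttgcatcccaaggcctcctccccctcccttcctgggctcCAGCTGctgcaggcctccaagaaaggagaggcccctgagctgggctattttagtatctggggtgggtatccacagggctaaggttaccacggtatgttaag
Tnni3 (chr7:4522479-4522778, minus strand): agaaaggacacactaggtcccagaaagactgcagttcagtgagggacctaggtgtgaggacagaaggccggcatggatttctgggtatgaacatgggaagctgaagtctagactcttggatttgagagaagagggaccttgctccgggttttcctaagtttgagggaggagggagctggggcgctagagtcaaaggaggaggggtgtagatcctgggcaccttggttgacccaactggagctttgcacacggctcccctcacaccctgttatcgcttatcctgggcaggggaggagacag
Myl1 (chr1:66945007-66945306, minus strand): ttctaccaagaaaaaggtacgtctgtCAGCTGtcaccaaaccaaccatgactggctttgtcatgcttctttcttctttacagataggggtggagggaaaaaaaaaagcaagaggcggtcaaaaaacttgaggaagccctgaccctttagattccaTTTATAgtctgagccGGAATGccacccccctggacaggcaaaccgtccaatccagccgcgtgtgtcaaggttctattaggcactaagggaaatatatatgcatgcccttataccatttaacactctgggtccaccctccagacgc

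Windows were found for 8 of the 10 genes. CAGCTG occurred at 4 of these 8 genes (Tnni1, Tnnt2, Mylpf and Myl1), with 2 copies in the Tnnt2 window, and in 16.3% of 32851 windows of all genes. CATTCC occurred at 3 (Tnnt2, Tnnc1 and Myl1; 14.7% of all windows) and TATAAA at 2 (Tnnt1 and Myl1; 13.6%). The MEF2 consensus, in 3.19% of all windows, and the CArG consensus, in 1.63%, had no match at the 8 genes. The 8 genes had 10 windows, so the counts by gene and the shares of all windows differ in unit. These counts describe letters in short windows and no binding was measured. The windows with and without an element both include ones that hold the E-box and ones that hold none of the motifs.

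The 88 elements fell unevenly on the loci. The Tnnt2 and Tnni1 pair had 29, the Tnnt3 and Tnni2 pair 16, Myl1 11, the Tnnt1 and Tnni3 pair 9, Tnnc1 9, Tnnc2 8 and Mylpf 6. Their median length was 225.5 bp, against 172 bp for all regions. By position 16 lay within 1 kb of a member's start (of either gene end for Tnnt3 and Tnni2, whose strand the table does not give), 26 elsewhere inside a member, 17 within 1 kb of an end of a neighbouring gene and 29 elsewhere. Elements called in at least 18 libraries numbered 8, or 9.09%, against 11.1% of all regions. No KO library called 38 of the 88 (43.2%), against 21.8% of all regions. No WT library called 6, a count for which the share of all regions is not given.

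**Figure D1:**
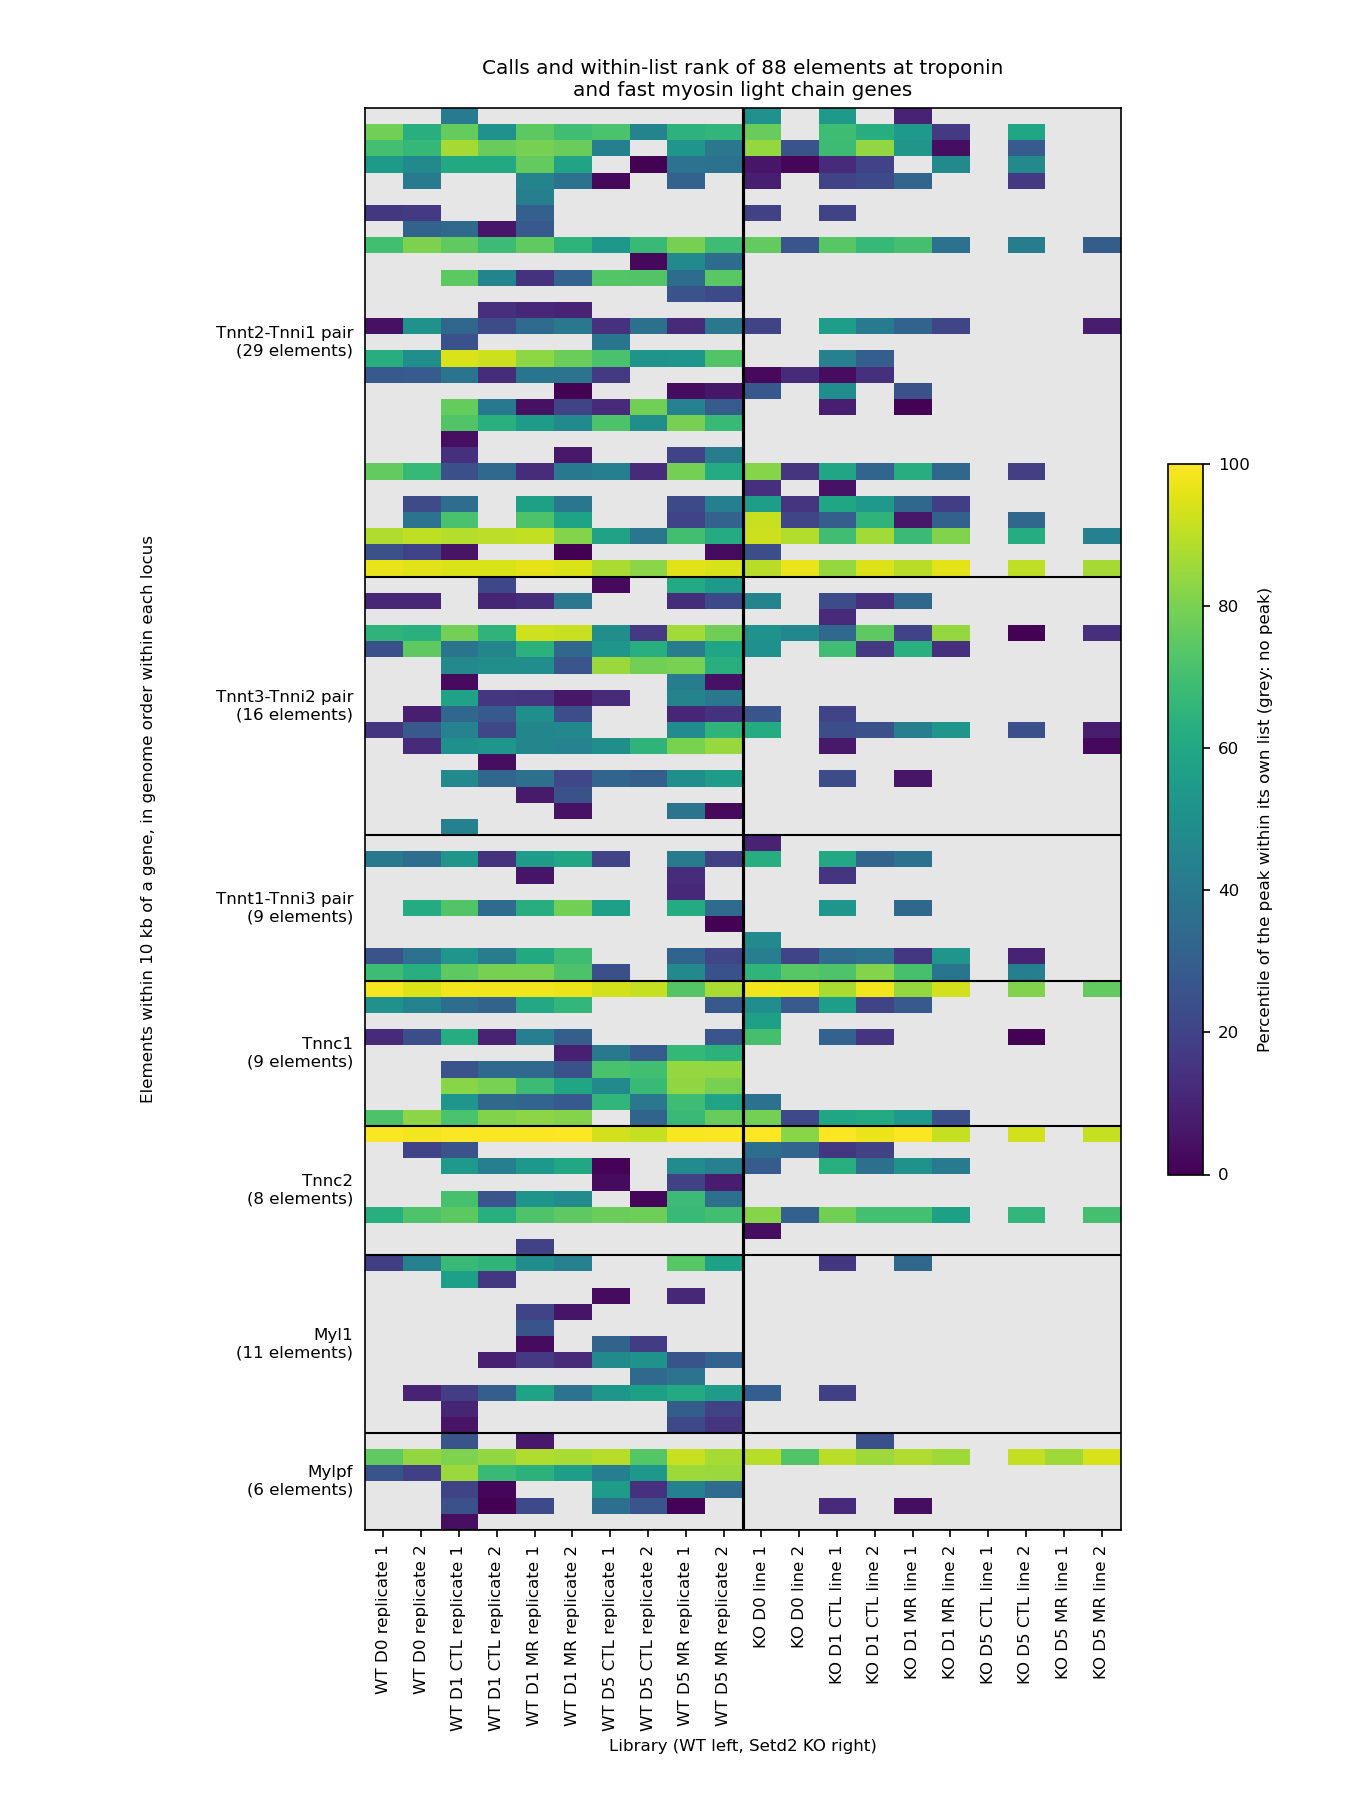
Each row is 1 of the 88 elements, ordered by position within its locus, and each column is a library, WT on the left and Setd2 KO on the right. Colour gives the percentile of the element's peak within its own list and grey marks no peak. The lists of KO line 1 at D5 are almost wholly grey, with 0 and 1 elements called.

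The share of these elements that was called went from below the share of all regions to above it in WT, except in D1 MR replicate 1 (64.8% against 66.9%), and stayed below it in KO. At D0 the WT libraries called 28 and 37 of the 88 elements (31.8% and 42%), against 39.9% and 46.6% of all regions. At D1 in CTL they called 58 and 49 (65.9% and 55.7%, against 55.4% and 42.2%), and at D5 in CTL 41 and 34 (46.6% and 38.6%, against 21% and 19.6%). In MR the WT libraries called 57 and 53 at D1 (64.8% and 60.2%, against 66.9% and 54.6%) and 59 and 57 at D5 (67% and 64.8%, against 37.8% and 37.2%). The margin over all regions was thus wider at D5 than at D1 in both media.

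KO libraries stayed below the share of all regions throughout. They called 40 and 19 elements at D0 (45.5% and 21.6%, against 60.6% and 28.7% of all regions) and 43 and 30 in D1 CTL (48.9% and 34.1%, against 58.9% and 43%). In D1 MR they called 31 and 21 (35.2% and 23.9%, against 47.2% and 33.6%). The D5 lists of line 2 held 18 elements in CTL and 11 in MR (20.5% and 12.5%, against 28.7% and 21.4%).

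**Figure D2:**
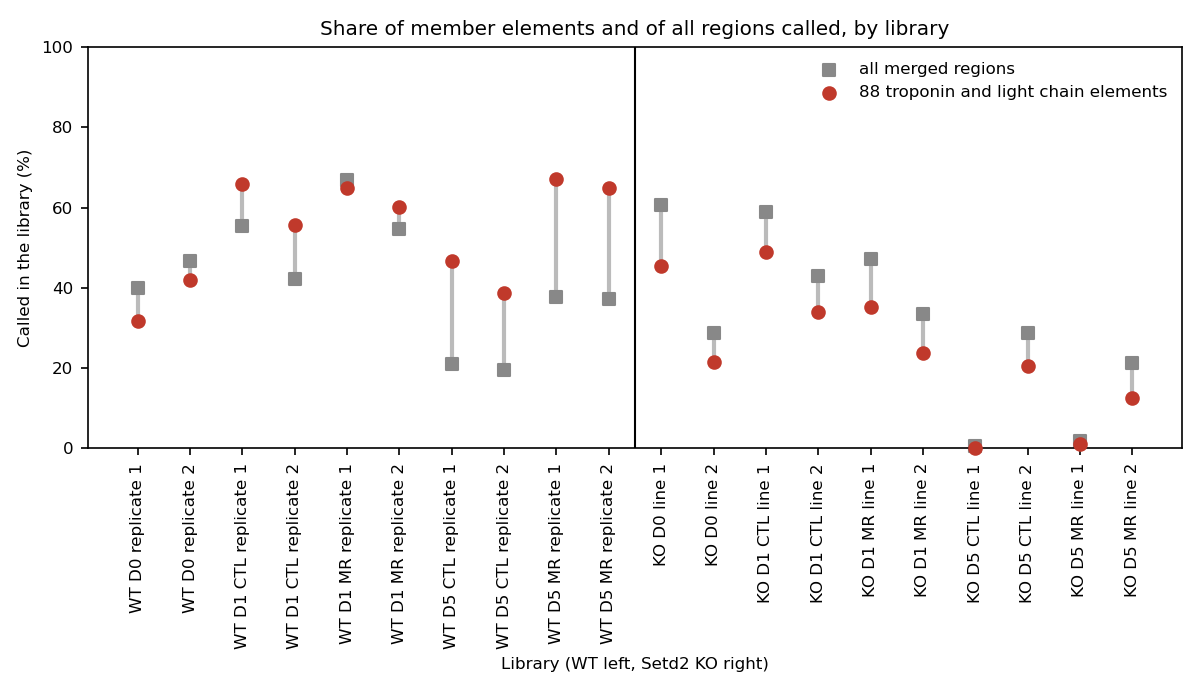
For each library the circle gives the percent of the 88 elements that was called and the square the percent of all 101352 regions, joined by a line. The circle lies above the square in 7 of the 8 WT libraries of D1 and D5 and below it in the WT D0 and all KO libraries.

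Whether elements were called less often without Setd2 was tested by permuting genotype within the 5 conditions (exact permutation test, two-sided, 7776 arrangements), with Benjamini-Hochberg adjustment over all 18700 regions whose calls allow a p of 0.05. Of the 29 elements that could be tested, 12 were called less often in KO and 0 more often. Over all regions tested, 16.1% were called less often and 2.73% more often. An unadjusted p under 0.05 was reached by 21 of the 29 elements and by 9506 of the 18700 regions tested. The 12 include the starts of Tnni1, Tnnt2 and Mylpf, an end of Tnni2 and of Tnnt3, and elements in or near Tnnc1, Tnnc2 and Myl1, so that 8 of the 10 genes had one and Tnnt1 and Tnni3 did not. Without the D5 libraries of KO line 1 the count was 7 of 24 tested, beside 11.5% of all regions tested. All 12, picked for low p with those libraries included, kept an unadjusted p under 0.05. The 7 are the Tnni1 and Tnnt2 start elements, the element at the Tnni2 end, the element between Tnni1 and Lad1, both Tnnc1 elements and the upstream Mylpf element.

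The count depended on the libraries and on the call rule. Without all libraries of KO line 1 it was 12 of 26 tested (24.7% of all regions), of which 7 were among the 12. Without WT replicate 1, WT replicate 2 or KO line 2 it was 0, as for all regions (0%), while 12, 11 and 12 of the 12 stayed under 0.05 unadjusted. The 12 had been picked for low p in overlapping sets of libraries, so these unadjusted counts give no separate support. With peaks of −log10 q of at least 5 it was 3 of 20 (4.86% of all regions). With peaks covering 50% of a region it was 0 of 25 (0%). Among the 20000 strongest peaks of each list it was 2 of 12, or 16.7%, close to the 15.7% of all regions.

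A stricter pattern was shared by 5 elements: a peak in all 8 WT libraries of D1 and D5, in neither WT D0 library and in none of the 10 KO libraries. It was met by 0.143% of all regions (145 regions), and was singled out after the values had been seen. The 5 lie at Tnni1, Tnnt2, Tnni2 and, with 2 elements, Tnnc1. The peak at Myog, the gene of the myogenic regulator myogenin, was called in the same 8 libraries and in no other, and its part in these results was not tested. In bulk chromatin, fewer cells with an open element and less opening in each cell cannot be told apart.

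Among the inhibitory subunits, Tnni1 gained an element exactly over its start at D1 in WT. The element (chr1:135799123-135799522) contains the whole printed window, and was absent from both WT D0 libraries and all KO libraries. Its percentiles were 74.7 and 45.2 in WT D1 CTL, 14.6 and 31.6 in D1 MR, 73.4 and 73 in D5 CTL, and 35.2 and 74.4 in D5 MR. The −log10 q values behind them ran from 2.81 in D1 MR replicate 1, whose list goes down to 1.015, to 15.2 in D1 CTL replicate 1. The start was thus open at D1 and D5 in WT, with a wide spread of strength between replicates. The genotype difference was 8 against 0 libraries (exact permutation p = 0.00154, adjusted 0.0353).

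Other elements in and around Tnni1 did not share that pattern. An element 4275 bp upstream of the start (chr1:135794464-135795146) was called in 18 libraries, at percentiles of 26.5 to 80.4. One at the lower end of the gene's span (chr1:135782825-135783354) was called in 9 WT and 6 KO libraries, including all 4 libraries of D0, and did not pass (exact permutation p = 0.278, adjusted 0.414). A weak element 694 bp upstream of the start (chr1:135798497-135798727) was called in 3 WT libraries of D5 alone, at percentiles of 2.096 to 47.6. Between Tnni1 and Lad1, the element chr1:135813807-135814039 was called in all 10 WT libraries and in both KO lines at D1 in CTL only. Its percentile was 62.3 and 49 in WT D0, 94.5 and 92.3 in WT D1 CTL and 43.4 and 30.3 in KO D1 CTL, with no overlap at D1 in CTL between the genotypes. It was called less often in KO (10 against 2 libraries, exact permutation p = 0.00154, adjusted 0.0353), and was the 1 element of the 88 that appeared in both KO lines at D1 in CTL after absence from both at D0.

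Tnni2, the fast inhibitory subunit, had an element across the lower end of its span (chr7:142441541-142441920) with the same calls as the Tnni1 start. Its percentiles were 47.2 and 49.5 in WT D1 CTL and 48.8 and 26.3 in D1 MR, then 85.05 and 78.6 in D5 CTL and 79.75 and 63 in D5 MR. The 4 D5 values all exceed the 4 D1 values, though ranks from lists of different length show no change by themselves. The genotype test gave the same p as for Tnni1 (8 against 0 libraries, exact permutation p = 0.00154, adjusted 0.0353). The element beside it (chr7:142440452-142441067), also within 1 kb of an end of Syt8, was called in 10 WT and 5 KO libraries and missed the threshold (exact permutation p = 0.0278, adjusted 0.0666). Another element at this end of Tnni2 (chr7:142442175-142442559) was called in 3 WT libraries, at percentile 3.10 in D1 CTL replicate 1 and 42.5 and 4.90 in D5 MR. The most widely called element of the Tnni2 and Tnnt3 pair lay at Syt8 (chr7:142437401-142437907) and was called in 10 WT and 8 KO libraries, at percentiles of 0.457 to 92.7. Tnni3, the cardiac isoform, had no element within 1 kb of its start in any library.

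Among the tropomyosin-binding subunits, Tnnt2 showed the clearest start. The element chr1:135835996-135836481 spans the printed window with its 2 E-boxes, and its percentiles in WT were 72.9 and 63.3 in D1 CTL, 55.1 and 47.9 in D1 MR, 72 and 49.3 in D5 CTL and 79.5 and 67.2 in D5 MR. All 8 values lie near or above the middle of their lists. No WT D0 and no KO library had a peak there (8 against 0, exact permutation p = 0.00154, adjusted 0.0353). An element 1654 bp upstream, also near an end of Lad1 (chr1:135834307-135834680), had the same 8 WT calls plus line 1 of KO at D1 in both media, at percentiles of 8.39 and 0.402, and just missed the threshold (exact permutation p = 0.0139, adjusted 0.0507).

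The body and the far side of Tnnt2 were open in both genotypes. Elements 7512 bp into it (chr1:135844501-135844916), at its 3′ end (chr1:135852198-135852671) and beyond it (chr1:135861894-135862642) were called in 17, 18 and 18 libraries. The last had the highest median percentile of the 3 elements of the pair called in 18 libraries, with values of 82.6 to 96.9. The only element of Tnnt2 called in KO alone, chr1:135845289-135845624, rested on 2 libraries of line 1.

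Tnnt3, the fast isoform, had an element over the lower end of its span (chr7:142498499-142499256) that was nearly absent from KO. In WT it was called in 9 libraries, at percentile 12.3 in D0 replicate 2, 50.3 and 52.3 in D1 CTL, 45.8 and 44.3 in D1 MR, 50 and 65.2 in D5 CTL and 79.7 and 84.45 in D5 MR. In KO it was called in 2 libraries, at percentiles 6.815 and 2.135, both below every WT value (exact permutation p = 0.00694, adjusted 0.0487, and 0.054 without the D5 libraries of KO line 1). A smaller element 2309 bp away (chr7:142496160-142496462) was called in 7 WT libraries at percentiles of 6.63 to 57.6 and in no KO library (exact permutation p = 0.00463, adjusted 0.0412, and again 0.054 without those libraries). Inside the gene, chr7:142499825-142500504 was called in the 8 WT libraries of D1 and D5 and in 2 KO libraries (exact permutation p = 0.0139, adjusted 0.0507). A peak 730 bp inside the gene (chr7:142499501-142499661) was called in WT D1 CTL replicate 2 alone. At this locus an element 685 bp from the same end (chr7:142497731-142498086) was called in 8 WT and 7 KO libraries, so the calls of neighbouring elements did not move as 1 block.

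Tnnt1, the slow isoform, gave little at its start. The 1 element within 1 kb, 623 bp upstream, was a peak in WT D5 MR replicate 2 alone, at percentile 0.581. An element 1304 bp into the gene (chr7:4514452-4514671) was called in 8 WT libraries, 1 of them at D0, and in 2 libraries of KO line 1, and did not pass (exact permutation p = 0.0208, adjusted 0.0666). The most widely called element of the Tnnt1 and Tnni3 pair lay at Dnaaf3 (chr7:4532422-4532668; 9 WT and 7 KO libraries), and another at Ppp1r12c (chr7:4501620-4502319) was called in 9 WT and 4 KO libraries (exact permutation p = 0.0417, adjusted 0.082).

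The calcium-binding subunits differed in how they were called. Tnnc1 had a run of elements from its start to beyond its 3′ end that were called in WT at D1 and D5. The element 843 bp into the gene (chr14:31209155-31209609) had percentiles of 25.8 and 34.1 in WT D1 CTL, 34.4 and 25 in D1 MR, 71.2 and 69.7 in D5 CTL and 84.2 and 83.9 in D5 MR. Every D5 value lies above every D1 value. The element past the 3′ end (chr14:31212493-31212802) was already strong at D1, at 82.1 and 79.9 in CTL and 68.4 and 58.9 in MR, and stood at 47.3 and 67.8 in D5 CTL and 83.5 and 79.7 in D5 MR. Both were called in 8 WT and 0 KO libraries (exact permutation p = 0.00154, adjusted 0.0353).

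The start of Tnnc1 itself was called later. The element over it (chr14:31208168-31208408) appeared in D1 MR replicate 2, at percentile 8.94, and in all 4 WT D5 libraries, at 40.6 and 28.9 in CTL and 66.8 and 64.4 in MR. No KO library had it, and the test missed the threshold (5 against 0 libraries, exact permutation p = 0.0278, adjusted 0.0666). The broad element 6408 bp downstream of the start (chr14:31214720-31215716) was called in the same 8 WT libraries and in KO D0 line 1 (exact permutation p = 0.0139, adjusted 0.0507). An element of Nisch at the edge of the window (chr14:31197919-31198446) was called in 18 libraries, at percentiles of 73.35 to 98.5.

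Tnnc2, the fast isoform, had an element close to its start that was called in both genotypes at D1. It lies 332 bp inside the gene (chr2:164778863-164779402), was absent from both WT D0 libraries and had percentiles of 53.7 and 42.6 in WT D1 CTL and 53.3 and 59.5 in D1 MR. In KO it was called at D1 in both lines and both media, at 63.2, 36.9, 51.4 and 41.5, and in D0 line 1 at 29.1. The values of the genotypes overlap at D1. The start itself (chr2:164779662-164780257) was called in 3 WT D5 libraries only, at percentiles of 2.96, 19.7 and 7.94. The element 2282 bp upstream (chr2:164782016-164782246) was called in 7 WT libraries, at percentiles of 1.76 to 71, and in 0 KO libraries (exact permutation p = 0.00463, adjusted 0.0412, and 0.054 without the D5 libraries of KO line 1). The widely called elements of this locus lay at Ube2c (chr2:164769593-164770066; 18 libraries, percentiles of 82.05 to 99.7) and at Snx21 (18 libraries).

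Mylpf, the regulatory light chain, had the element with the lowest genotype p of the 88. It lies 910 bp upstream of the start (chr7:127210372-127210698) and was called in all 10 WT libraries and in no KO library, which gave the lowest p the arrangements allow (exact permutation p = 0.000257, adjusted 0.0353). Its percentiles were 26.1 and 19.1 at D0, 84.9 and 67.8 in D1 CTL, 64.2 and 55.6 in D1 MR, 43.1 and 53.3 in D5 CTL and 85.2 and 84.9 in D5 MR. The D0 values are the lowest of the 10. The start element (chr7:127211505-127211703) was weaker and was called in 6 WT libraries, both of D1 CTL at 20.6 and 1.59, both of D5 CTL at 55.1 and 14.2 and both of D5 MR at 43.9 and 35.05. It was absent from D1 MR and from KO (exact permutation p = 0.00926, adjusted 0.0493, and 0.068 without the D5 libraries of KO line 1).

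The element of Mylpf shared with Tbc1d10b behaved otherwise. It covers the lower end of the Mylpf span and an end of Tbc1d10b (chr7:127208526-127209514), and was called in 19 libraries, at percentiles of 72.9 to 94. It was the 1 element of the 88 found in a D5 list of KO line 1.

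Myl1, the essential light chain, had 11 elements. No KO library called 9 of them, beside 21.8% of all regions. Apart from the element described next, these 9 were called in only 1 to 3 libraries each. None of the 11 lay within 1 kb of the gene's annotated start. The element 9488 bp into the gene from that start (chr1:66935209-66935568) was called in 7 WT libraries, at percentile 8.84 in D1 CTL replicate 2, 16.7 and 11.8 in D1 MR, 47.9 and 51.15 in D5 CTL and 26.1 and 31.4 in D5 MR. No KO or WT D0 library had it (exact permutation p = 0.00463, adjusted 0.0412, and 0.0504 without the D5 libraries of KO line 1). The most widely called element of the gene (chr1:66941033-66941188) was found in 9 WT and 2 KO libraries (exact permutation p = 0.0139, adjusted 0.0507). An element past the 3′ end (chr1:66922206-66922359) was called in 8 WT libraries, both of D0 included, and in line 1 of KO at D1 (exact permutation p = 0.0139, adjusted 0.0507). No element of Myl1 was called in 18 libraries.

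**Figure D3:**
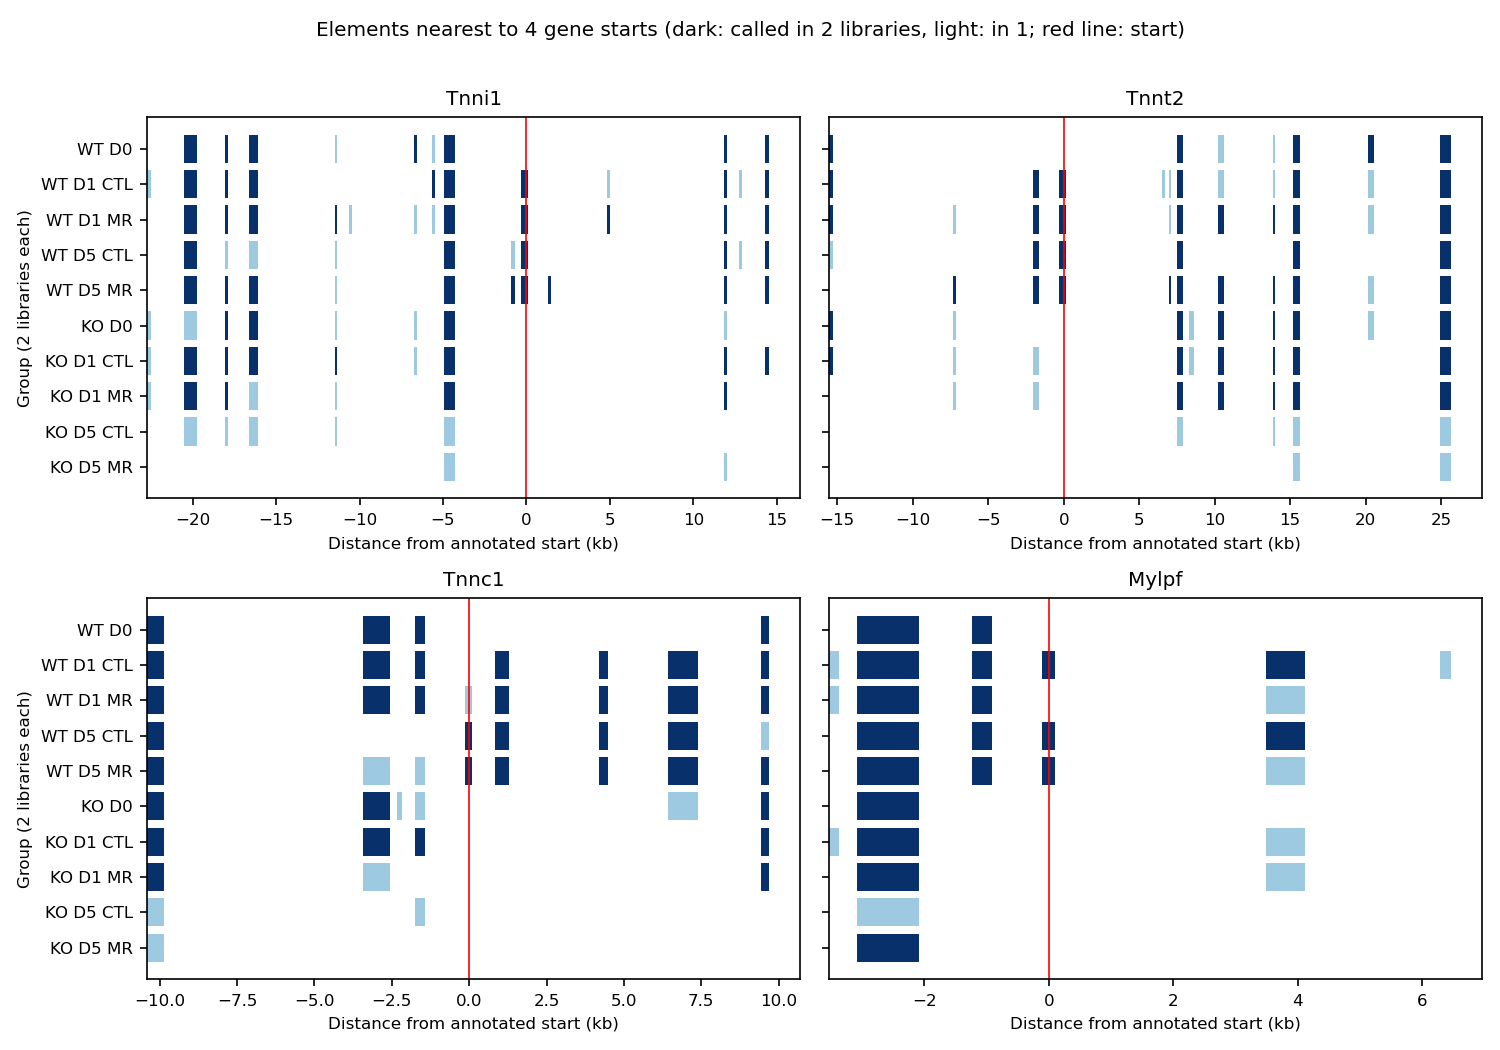
For Tnni1, Tnnt2, Tnnc1 and Mylpf each bar is an element nearest to that gene's start, placed by the distance of its midpoint from the annotated start in kb (the shortest bars are widened to stay visible). Rows are the 10 groups, dark bars were called in both libraries and light bars in 1. At the red line, bars are present in WT rows of D1 or D5 and absent from all KO rows.

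The other genes of the filaments gave like counts. Of 18 further thin filament genes, such as actins, tropomyosins and tropomodulins, 40 of 169 elements could be tested and 12 (30%) were called less often in KO and 0 more often, at 8 genes. Of 20 further light chain and thick filament genes, 46 of 154 could be tested, with 15 (32.6%) called less often and 0 more often. These lay at 10 genes, of which Myl6 and Myl6b share an element. Over all regions tested, 16.1% were called less often and 2.73% more often. Counts for both lists without the D5 libraries of KO line 1 are not given. The elements with the lowest p in the first list lay at Actc1, the cardiac actin of embryonic muscle, at the pointed-end capping gene Tmod1 and at Xirp1, each called in 10 WT and 1 KO library (exact permutation p = 0.000772, adjusted 0.0353). In the second they lay at Myom3 (10 and 1, exact permutation p = 0.000772), and at Mybph and Myom1 (8 and 0, exact permutation p = 0.00154), all with an adjusted p of 0.0353. Of the 145 regions with calls in all 8 WT libraries of D1 and D5 alone, 1 lay in the first list and 2 in the second.

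Counts within single conditions were also taken. At D0, 3 of the 88 elements (3.41%) were called in both WT and neither KO library, near the 3.77% of all regions. The other way there were 0 (1.77% of all regions). The 3 lie 910 bp upstream of Mylpf, between Tnni1 and Lad1, and past the 3′ end of Myl1. At D1 in CTL, where list lengths were alike, the counts were 12 elements (5.06% of all regions) and 1 (4.25%). The 12 include the starts of Tnni1, Tnnt2 and Mylpf, and the 1 in the other direction is a weak element in the upstream part of Tnni1. With 2 libraries against 2 the smallest exact permutation p is 0.333, so such counts cannot pass a threshold and are given as a description. At D1 in MR the counts were 19 (13.9%) and 0 (1.26%), with WT lists of 69881 and 57676 peaks against 48460 and 35201 in KO.

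Between D0 and D1 in CTL the WT libraries gained 14 of the 88 elements (called in both D1 and neither D0 library; 4.69% of all regions) and lost 1 (1.66%). The gains touch Tnni1, Tnnt2, Tnni2, Tnnt3, Tnnc1, Tnnc2, Myl1 and Mylpf. The KO libraries gained 1 (1.44% of all regions) and lost 0 (0.266%). For D1 against D0 the smallest exact permutation p is 0.0556, so no element could reach the threshold.

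For D5 against D1 the test within genotype and medium (1296 arrangements) was possible for 6 elements. All 6 were called less often at D5, as were 66.2% of all regions tested, while 0.00619% were called more often. They lie at Lad1, Dnaaf3, Nisch and Sema3g, in the Tnnt2 body and 332 bp inside Tnnc2, with the lowest p at Nisch (exact permutation p = 0.0139, adjusted 0.0379). Without the D5 libraries of KO line 1, 0 of 4 testable elements passed (0% of all regions), and with KO libraries paired by line 3 of 3 did (85.1% of all regions). None of the 6 could be tested for genotype, so none could be among the 12 called less often in KO. In WT CTL alone, D5 gained 2 elements (0.237% of all regions), over the Tnnc1 start and inside Myl1, and lost 8 (19% of all regions).

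D5 lists are shorter, so elements were also counted among the 20000 strongest peaks of each list, a setting in which every list but those of KO line 1 at D5 has the same length. In WT the counts were 15 and 15 at D0, 22 and 17 in D1 CTL, 15 and 15 in D1 MR, 36 and 31 in D5 CTL and 27 and 27 in D5 MR. The WT counts at D5 all exceed those at D0 and D1. KO counts were 13 and 7 at D0, 11 and 13 in D1 CTL, 10 and 10 in D1 MR, and 10 and 8 in the D5 lists of line 2, all below every WT count. Among these peaks 14 elements were in both WT D5 CTL libraries and in neither of WT D1 CTL (2.88% of all regions), and 1 was the other way (3.14%). The 14 include the Tnni2 and Tnnt3 ends, the start and first part of Tnnc1, the start of Mylpf and 3 elements inside Myl1. The D5 CTL lists hold 22465 and 20847 peaks in all, so this setting leaves them nearly whole and shortens the D1 lists by more.

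**Figure D4:**
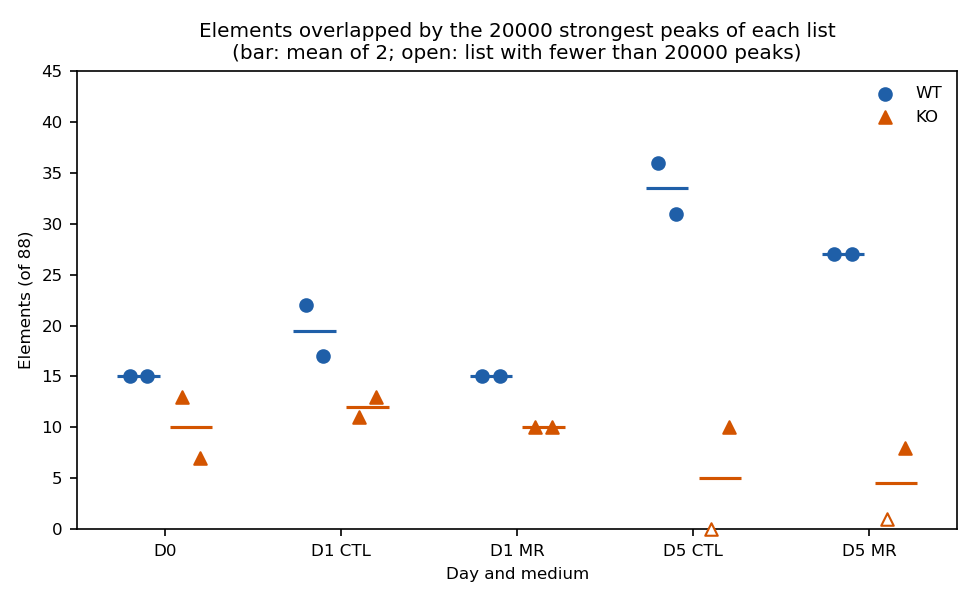
Points give, for each library, how many of the 88 elements overlap the 20000 strongest peaks of its list, for WT (circles) and KO (triangles), with bars at the mean of 2 and open symbols for lists with fewer peaks. WT reaches 36 and 31 at D5 in CTL, and no KO library exceeds 13.

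Methionine restriction could be tested at 2 elements, and neither passed (exact permutation test with Benjamini-Hochberg adjustment, 0 at an unadjusted p under 0.05). Over all regions 0% of those tested passed in either direction, with 230 of 3909 at an unadjusted p under 0.05. In WT at D1, MR gained 3 elements (7.73% of all regions) and lost 2 (1.33%), the start of Mylpf and an element past the 3′ end of Myl1. For KO at D1 the gains were 0 (0.253%) and the losses 4 (2.74%), among them the element between Tnni1 and Lad1.

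In WT at D5, MR gained 14 elements (11.9% of all regions) and lost 1 (0.211%), with lists of 39538 and 39263 peaks against 22465 and 20847 in CTL. The gains were 4 at the Tnnt2 side of its pair and 1 inside Tnni1, 5 at Tnni2 and Tnnt3, 3 at Myl1 and 1 at Dnaaf3, and 1 of them lay within 1 kb of the Tnni2 end and another within 1 kb of the Tnnt3 end. Among the 20000 strongest peaks the balance turned: 2 elements were in both MR and neither CTL library (2.17% of all regions) and 6 in both CTL and neither MR library (1.87%). The 6 include the start of Mylpf and 2 elements inside Myl1. The direction of the difference in medium at D5 thus depends on the length of the lists compared.

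Strength was compared where both genotypes had peaks. All 12 D0 and D1 libraries called 19629 regions in common, of which 13 were elements of these genes. Each library was ranked again over those 19629 regions alone. In the exact permutation test within condition (216 arrangements, smallest p 0.00926) 0 of the 13 passed after Benjamini-Hochberg adjustment, as did 0% of all such regions. An unadjusted p under 0.05 was reached by 2 of the 13 and by 5151 of the 19629 regions. The element at Sema3g next to Tnnc1 ranked lower in KO, by −29.9 percentile points, with WT at 38.2 to 62.6 and KO at 7.84 to 43.7 (exact permutation p = 0.00926, adjusted 0.0732). The element shared by Tbc1d10b and Mylpf ranked higher in KO, with a mean of 69.1 against 60.8 (exact permutation p = 0.037, adjusted 0.154). None of the 13 lay within 1 kb of a member's start, so the starts called in WT alone had no strength to compare in KO.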

How the data were processed

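ATAC-seq was done on 20 libraries of 10 groups with a commercial tagmentation kit, per the labels' protocols. The authors deposited 1 broadPeak list per library, and each peak has a score, a fold enrichment (a ratio), a −log10 p-value and a −log10 q-value as the authors' own values. The build is GRCm38, per the submitters' processing notes. The aligner, peak caller and filters are not given in the sources used here, and read depth is unknown, so the number of peaks per list stands beside each result it touches. Values were used only to rank or filter peaks within a list.

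With Python 3.11.15, numpy 2.4.6, pandas 2.3.3 and scipy 1.17.1, 787806 peaks were merged into regions, which were tested by exact two-sided permutation of calls within strata at an adjusted threshold of 0.05. Code was tested on simulated data. Gene spans and promoter windows came from RefSeq (GRCm38.p6). The genes and lists were chosen with earlier results of these data known. Elements named were those within 1 kb of a member's start, those with an unadjusted p under 0.05, the most widely called of each locus (ties by median percentile), and, for other lists, the 3 genes of lowest p (ties alphabetical); a few further ones were named after their values were seen. One muscle marker is not reported here.

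KO libraries of the same number are the same line (correlation of their deviations 0.115 to 0.647), whereas WT replicates share only a number (−0.0296 to 0.045). No list was identical to another. Alternatives were peaks with −log10 q of at least 5, peaks covering 50% of a region, the 20000 strongest peaks, each replicate left out, the D5 libraries of KO line 1 left out, and replicate blocks.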

Additional observations from a re-analysis of the deposited data

How the results depend on the processing

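The count of 12 elements called less often in KO became 3 with peaks of −log10 q of at least 5, 0 with peaks covering 50% of a region and 2 with the 20000 strongest peaks. In these settings 8, 9 and 4 of the 12, which had been picked for low p, kept an unadjusted p under 0.05. It was 0 to 12 with 1 replicate or line left out and 7 without the D5 libraries of KO line 1. Leaving out libraries lowers the number of arrangements. For D5 against D1 the 6 elements became 0 with the strongest peaks and 0 to 1 with 1 replicate or line left out. Shares of all regions for the day test in those settings are not given. Without the D5 libraries of KO line 1 the day count was 0. For methionine restriction and for rank the count was 0 in every setting run. The 5 elements with calls in all WT libraries of D1 and D5 alone became 2, 2 and 0 under the other call rules, which were chosen for this count after seeing the data, as they were for counts of 2 against 2 libraries. Of these, the 12 elements at D1 in CTL became 9, 15 and 5, the 19 at D1 in MR 10, 16 and 4, and the 14 gained by WT at D1 8, 12 and 4 (−log10 q, coverage, strongest peaks). Shares of all regions under the other call rules are not given for these counts or for the 5 elements. The counts therefore do not show whether the elements exceed all regions there. The Ppp1r12c element turned to a difference of 0.2 in the share of libraries with 50% coverage, and the Lad1 element to 0.125 at D5 with the strongest peaks. The cause was not tested.

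A replicate block on all numbers, although the WT numbers pair nothing, gave 16 elements for genotype, 1 for day, and 0 for methionine restriction and rank. Numbers tested and shares of all regions under this block are not given. The counts of 16 and 1 therefore do not show whether the elements exceed all regions. Pairing KO libraries by line alone gave 3 of 3 tested for day (85.1% of all regions tested) and 0 for methionine restriction.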
